A study of Mus musculus with 12 samples.

Results

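The genes described here are 8 markers of fat cells: Adipoq, Retn, Lep, Plin1, Cidec and Car3 as genes of white fat, and Ucp1 and Cidea as genes of brown fat. They were taken from the non-control probes of a mouse expression array by the gene name in the scanner files, where 13 probes carry one of these names, and they make up 8 of the 36981 genes on the array. They were chosen with their signal on these same arrays already known, as a gauge of the fat in each heart sample, so their levels are given as a description and carry no test.

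Total RNA of 12 mouse heart samples was measured, 1 array per sample, in 4 groups of 3. WT hearts came from C57/BL6 mice, and WT+MI hearts from C57/BL6 mice after myocardial infarction. TG hearts were transgenic for CCRR, a long non-coding RNA, and TG+MI hearts carried the same transgene and had an infarction. The labels give the tissue only as fresh heart. The labels name a strain for the wild-type groups and none for the transgenic ones, so strain and transgene cannot be told apart. The transgene's promoter, the animals' age, the time after infarction and the number of animals behind each group are not given here. The p-values below therefore rest on the spread between samples of a group, some of which may be technical. All 8 heart muscle markers examined, among them Myh6, Tnnt2 and Tnni3, were well above background on all 12 arrays. The arrays lay on 2 slides, slide 1 with both wild-type groups, TG 1 and TG 2, and slide 2 with the TG+MI group and TG 3. Signals at the 75th percentile ranged from 198 to 374 over the arrays, and between 47.0% and 55.2% of probes were well above background.

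White fat cells store triglyceride in a single large droplet and secrete hormones that act on liver, muscle and brain. Brown fat cells hold many small droplets and burn fatty acids for heat in mitochondria whose inner membrane carries uncoupling protein. Fat tissue lies on the surface of the mammalian heart and around the great vessels, next to the muscle that makes up most of a heart sample. On these arrays 6 of the 8 genes were between 7.0-fold and at least 226-fold higher on 1 array, TG 1, than on any other.

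The probes are 60 bases long, and those of 3 hormone genes and of Ucp1 are shown as examples. Each lies in the coding part of its transcript, and positions are those of the array files on the mm9 build. The Adipoq probe lies at chr16:23157576-23157635, the Retn probe at chr8:3657312-3657371, the Lep probe at chr6:29020910-29020969 and the Ucp1 probe at chr8:85821788-85821847, all on the plus strand.
Adipoq: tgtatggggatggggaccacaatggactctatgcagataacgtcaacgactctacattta
Retn: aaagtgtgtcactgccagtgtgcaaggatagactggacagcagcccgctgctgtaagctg
Lep: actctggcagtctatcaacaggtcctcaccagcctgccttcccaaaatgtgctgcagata
Ucp1: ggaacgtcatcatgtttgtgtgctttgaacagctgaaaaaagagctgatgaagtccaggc

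Values are given as the log2 of the background-subtracted signal minus that array's 75th percentile, so that 0 is the signal at the 75th percentile of the non-control probes. A signal is called well above background by the scanner software's own flag. Values are compared between arrays for 1 probe, and no value of 1 gene is set against that of another as a level.

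Adipoq encodes adiponectin, a hormone that fat cells secrete in large amounts. Its values were -5.89, -2.42 and -4.52 on the WT arrays, -4.96, -5.91 and -3.80 on WT+MI, 2.81, -2.16 and -1.67 on TG, and -3.34, -6.00 and -6.01 on TG+MI. The probe was well above background on 6 arrays, namely all 3 TG arrays, WT 2, WT+MI 3 and TG+MI 1. Before scaling, its signal was 2618 on TG 1 and 69.6 and 102 on TG 2 and TG 3, against 4.76, 37.2 and 12.2 on the WT arrays. TG 1 was 22.2-fold above the next highest array, TG 3, and the lowest TG array lay just above the highest WT array. In whole-heart RNA, more fat cells and more RNA per fat cell cannot be told apart, here and for every gene that follows.

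Retn encodes resistin, a hormone of mouse white fat. Its values were -5.65, -2.94 and -5.37 on WT, -3.47, -4.64 and -2.77 on WT+MI, 0.98, -2.93 and -1.83 on TG, and -3.85, -5.04 and -4.99 on TG+MI. It was well above background on 7 arrays, and TG 1 was 7.0-fold above TG 3. TG 2 lay at the level of WT 2, so that only TG 1 and TG 3 stood clear of WT. A second Retn probe spanned 7.46 log2 units over the 12 arrays, against 6.63 for the first, and had the same 2 arrays on top.

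Lep encodes leptin, the hormone that reports fat stores to the brain. Its values were -1.63, -1.47 and -1.68 on WT, -1.93, -1.97 and -1.84 on WT+MI, -1.80, -1.77 and -1.74 on TG, and -1.90, -2.09 and -1.76 on TG+MI. On each of the 12 arrays the Lep probe was well above background, and it spanned only 0.62 log2 units. TG 1 lay in the middle of the 12 arrays, at 0.79 times the level of WT 2, the highest. Lep was the single white fat gene of the 6 that was not highest on TG 1.

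Plin1 encodes perilipin 1, which coats the fat droplet and holds back lipolysis. Its values were -5.50, -4.56 and -6.07 on WT, -5.19, -6.00 and -5.01 on WT+MI, 0.66, -4.29 and -4.17 on TG, and -4.85, -6.98 and -4.94 on TG+MI. Only TG 1 was well above background, and there Plin1 was at least 21.8-fold above each other array. The other 2 Plin1 probes, which lie elsewhere in the gene, were also highest on TG 1. The first was 2.68-fold above TG+MI 3, the other array where it was well above background, and the second was well above background on TG 1 alone.

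Cidec encodes the droplet protein that joins small droplets into the large one of white fat cells. Its values were -6.63, -2.25 and -4.38 on WT, -5.14, -5.87 and -3.09 on WT+MI, 3.96, -0.73 and -0.02 on TG, and -1.86, -5.15 and -6.75 on TG+MI. The 6 arrays on which Cidec was well above background were those of Adipoq. TG 1 was 15.8-fold above TG 3, and the lowest TG array lay above every array of the other 3 groups.

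Car3 encodes carbonic anhydrase 3, an abundant protein of white fat that slow skeletal muscle and liver also make. Its values were -5.12, -0.75 and -3.07 on WT, -3.90, -3.78 and -2.59 on WT+MI, 4.86, 0.16 and 0.18 on TG, and -1.19, -4.32 and -6.82 on TG+MI. Car3 was well above background on 9 arrays and spanned 11.7 log2 units, the widest range of the 8 genes. TG 1 was 25.6-fold above TG 3. The 2 other Car3 probes spanned 7.19 and 8.01 log2 units and had TG 1 19.3-fold and 28.0-fold above TG 3. All 3 TG arrays lay above the 9 other arrays on the main probe.

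Ucp1 encodes uncoupling protein 1, the heat-producing channel of brown fat mitochondria. Its values were -6.55, -6.06 and -6.29 on WT, -3.75, -5.79 and -6.20 on WT+MI, 4.07, -5.87 and -6.29 on TG, and -6.79, -7.03 and -6.70 on TG+MI. The probe was well above background on TG 1 and WT+MI 1 only. Before scaling, the signal was 6267 on TG 1 and 18.9 on WT+MI 1, and between 2.49 and 5.32 on the 10 other arrays. TG 1 was at least 226-fold above each other array. Ucp1 thus separated TG 1 from TG 2 and TG 3, which were not well above background, although both carried signal for Adipoq, Retn, Cidec and Car3.

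Cidea encodes a droplet protein of brown fat and relative of Cidec. Its values were 4.00, 4.13 and 3.91 on WT, 3.23, 4.03 and 3.85 on WT+MI, 5.10, 4.33 and 4.28 on TG, and 4.24, 4.00 and 4.33 on TG+MI. Each of the 12 arrays had Cidea well above background, over a span of 1.88 log2 units. TG 1 was highest, 1.71-fold above TG+MI 3. Before scaling, the 6 transgenic arrays held 5220 to 12837 and the 6 wild-type arrays 2385 to 4694 with no overlap. After scaling, WT 2 lay above TG+MI 2, so that the ranges overlapped.

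**Figure D1:**
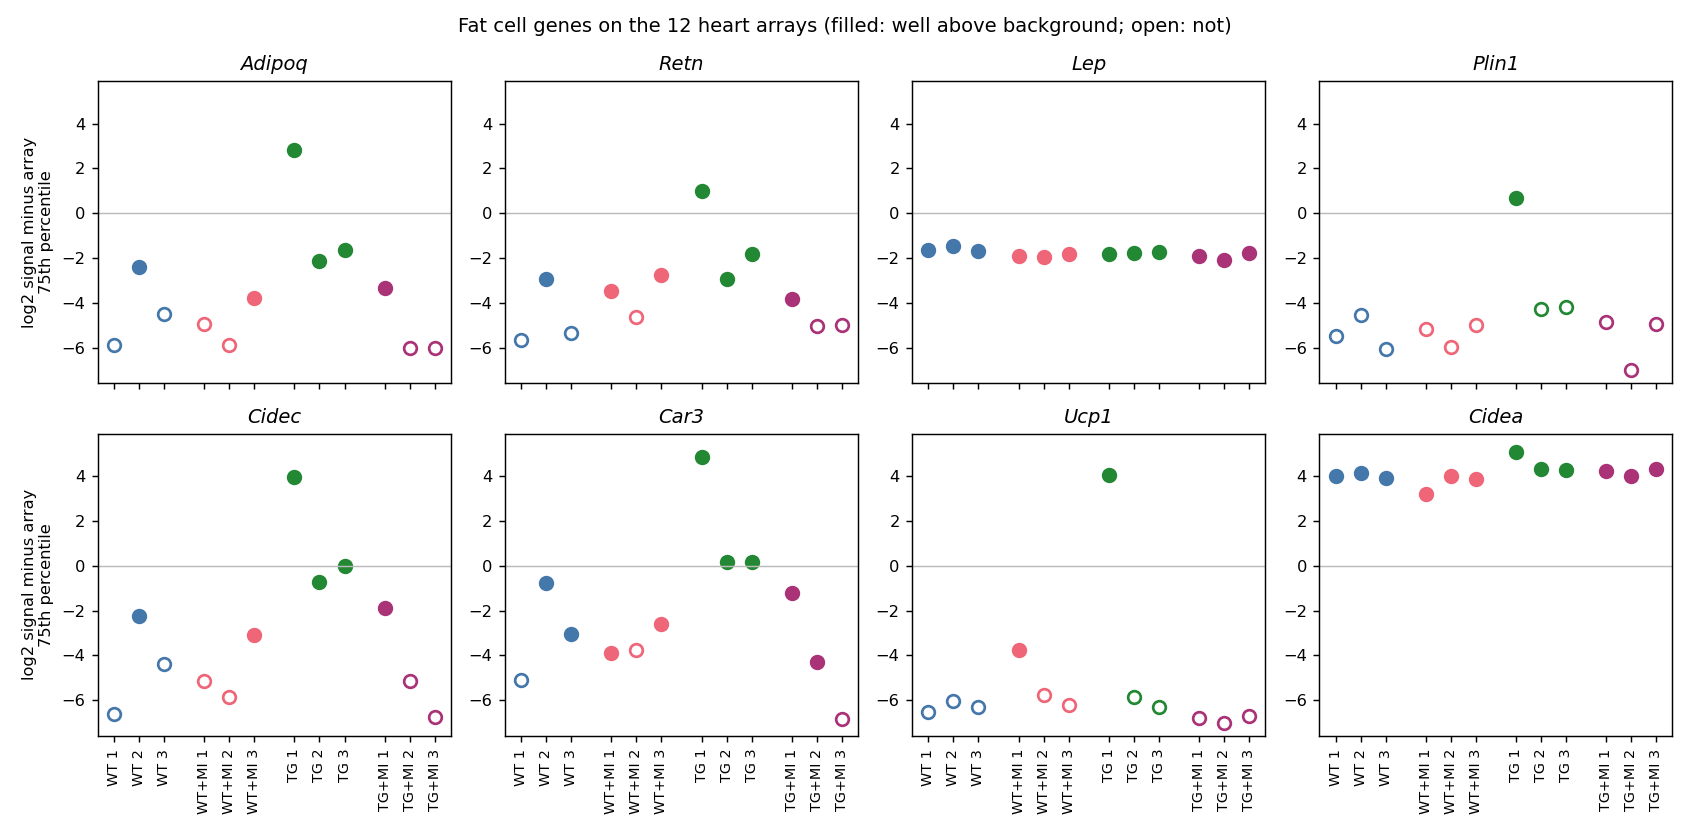
Each panel plots 1 gene, with the 12 arrays on the x axis and the log2 signal minus the array's 75th percentile on the y axis; filled points were well above background and open points were not. TG 1 stands at 2.81 for Adipoq, 0.66 for Plin1 and 4.07 for Ucp1 while every other array lies at -1.67 or lower for these 3, and Lep and Cidea stay within 0.62 and 1.88 log2 units.

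To order the arrays by white fat signal, each of the 6 white fat genes was set to its deviation from its own mean over the 12 arrays and the 6 deviations were averaged. This white fat index was -1.89, 0.79 and -0.998 on WT, -0.92, -1.51 and -0.00 on WT+MI, 5.09, 1.23 and 1.64 on TG, and 0.35, -1.75 and -2.03 on TG+MI. The order from the highest was TG 1, TG 3, TG 2, WT 2, TG+MI 1, WT+MI 3, WT+MI 1, WT 3, WT+MI 2, TG+MI 2, WT 1 and TG+MI 3. Group means were -0.70 ± 1.36 for WT, -0.81 ± 0.76 for WT+MI, 2.65 ± 2.12 for TG and -1.14 ± 1.30 for TG+MI (SD, n = 3 each). The WT, WT+MI and TG+MI means lay within 1 SD of each other. In each of these groups 1 array was higher than the rest: WT 2, WT+MI 3 and TG+MI 1. The SD of TG came mostly from TG 1, since TG 2 and TG 3 differed by less than the spread within any group. The 4 highest arrays were the same, in the same order, with the median over the 6 genes, with quantile normalization and with the authors' value table.

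The number of the 8 genes well above background followed the same order in part. It was 2, 6 and 3 on WT, 5, 2 and 6 on WT+MI, 8, 6 and 6 on TG, and 6, 3 and 2 on TG+MI. TG 1 was the single array on which all 8 were well above background. The brown fat index, the mean deviation of Ucp1 and Cidea, was 5.16 on TG 1 and 0.31 on WT+MI 1 and below 0 on the 10 other arrays. On those 10 arrays Ucp1 was not well above background, whereas Cidea was well above background on every array. The 2 genes disagreed on WT+MI 1, where Ucp1 deviated by 1.52 and Cidea by -0.89, its lowest value. The index is therefore a weak gauge of brown fat outside TG 1.

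**Figure D2:**
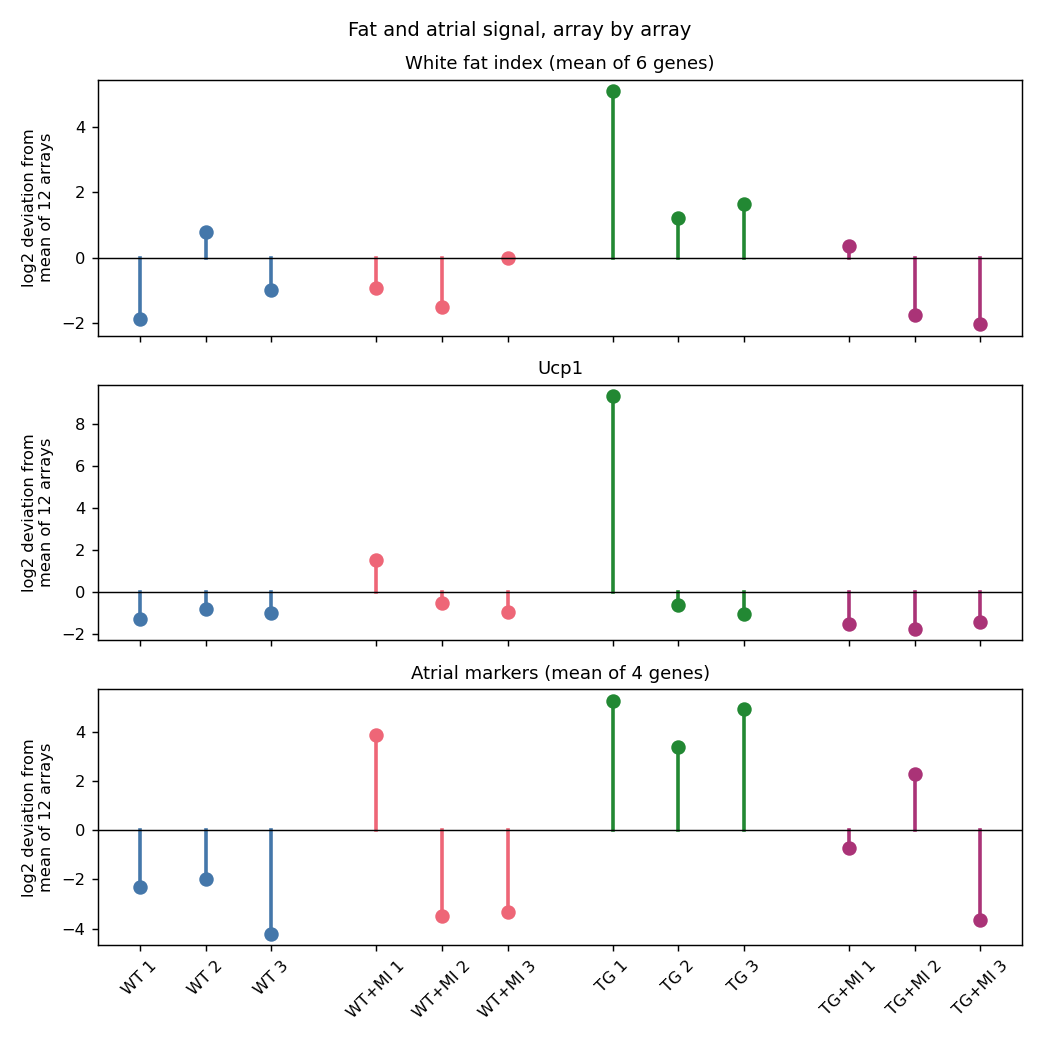
The 12 arrays are on the x axis and the y axes give the log2 deviation from the mean of the 12 arrays for the white fat index (top), Ucp1 (middle) and the mean of 4 atrial markers (bottom). TG 1 is highest in all 3 panels, TG 2 and TG 3 lie below 0 for Ucp1 and above 0 in the other 2 panels, and WT+MI 1 lies above 0 for Ucp1 and the atrial markers while its white fat index is -0.92.

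Between TG and WT, which differ in the transgene and possibly in strain, 7 of the 8 genes had the higher mean in TG. Differences on the log2 scale with their standard errors from limma (n = 3 a group) were 3.94 ± 1.34 for Adipoq, 3.39 ± 0.99 for Retn, 5.49 ± 1.57 for Cidec and 4.71 ± 1.62 for Car3. Plin1 and Ucp1 were well above background on no WT array and on 1 of 3 TG arrays, TG 1. Neither therefore has a fold between the groups. TG 1 alone was at least 21.8-fold above each other array for Plin1 and at least 226-fold for Ucp1. Such a bound sets its signal against the lowest that counted as well above background on each other array, or that array's own signal where higher. Cidea differed by 0.56 ± 0.25 and Lep by -0.18 ± 0.11. Groups did not overlap for Adipoq, Retn, Plin1, Cidec, Car3 and Cidea, all higher in TG, and for Lep, lower in TG. For Retn the gap was narrow, with TG 2 at -2.928 and WT 2 at -2.935, and on the second Retn probe TG 2 at -3.39 lay below WT 2 at -2.74. Of the 6 of these 8 genes that passed the filter on dim probes, 5 were higher without overlap, as were 12.1% of all 19761 genes tested, and 1 was lower without overlap, as were 22.3%. The genes were chosen for this contrast among others, and nothing is read from these counts.

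Without TG 1 the differences of TG from WT were 2.37 ± 1.08 for Adipoq, 2.27 ± 0.83 for Retn, 4.04 ± 1.53 for Cidec and 3.14 ± 1.53 for Car3. Those 4 white fat genes thus stayed higher in TG 2 and TG 3 than in WT on average, by between 2.27 and 4.04 log2 units. Among the WT arrays, Adipoq, Retn and Cidec were well above background on WT 2 alone and Car3 on WT 2 and WT 3. The WT means of these genes thus include dim signals, which leaves the size of each difference uncertain. Plin1 and Ucp1 were well above background on none of these 5 arrays, so that neither has a fold without TG 1, and Cidea differed by 0.29 ± 0.21. On slide 1 alone, which sets TG 1 and TG 2 against the WT arrays, the white fat index was 3.86 higher in TG, against 3.35 with all arrays. With normexp background correction, which compresses dim signals, it was 1.72 higher. Under normexp the TG differences, with TG 1 included, were 1.95 for Adipoq, 1.34 for Retn, 3.00 for Cidec and 3.21 for Car3.

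**Figure D3:**
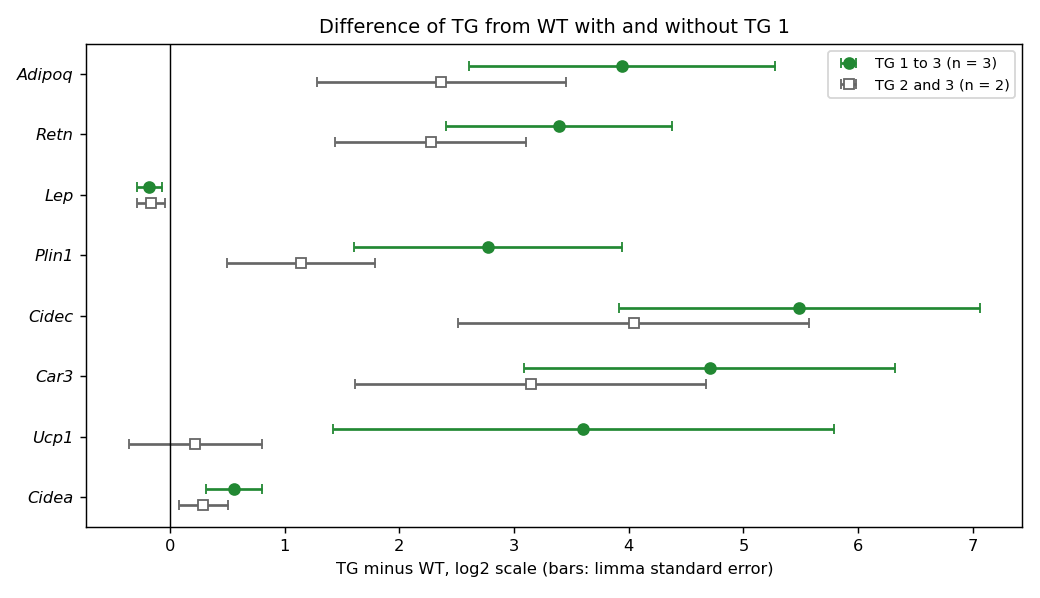
Points give the difference of TG from WT on the log2 scale for each of the 8 genes and bars its limma standard error, with all 3 TG arrays (filled) and with TG 2 and TG 3 only (open). The Ucp1 difference goes from 3.60 to 0.22 without TG 1 and that of Cidec from 5.49 to 4.04; for Ucp1 and Plin1 the fitted values include arrays not well above background.

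After infarction in wild-type hearts, the group means of these genes differed by no more than the spread between replicates, except for Lep. WT+MI minus WT was -0.61 ± 1.34 for Adipoq, 1.02 ± 0.99 for Retn, -0.28 ± 1.57 for Cidec, -0.45 ± 1.62 for Car3 and -0.31 ± 0.25 for Cidea, each about as large as its standard error or smaller. Plin1 was well above background on none of these 6 arrays and Ucp1 on WT+MI 1 alone, and neither has a fold. Lep was 0.32 ± 0.11 lower after infarction on the log2 scale, with all 3 WT+MI arrays below all 3 WT arrays, as was the case for 39% of all genes tested in this comparison.

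After infarction in transgenic hearts, all 8 genes had a lower mean than in TG. TG+MI minus TG was -4.78 ± 1.34 for Adipoq, -3.37 ± 0.99 for Retn, -5.66 ± 1.57 for Cidec, -5.84 ± 1.62 for Car3, -0.38 ± 0.25 for Cidea and -0.15 ± 0.11 for Lep. Plin1 and Ucp1 were each well above background on TG 1 alone among the 6 arrays, and neither has a fold between the groups. Groups did not overlap for Adipoq, Retn, Plin1, Cidec, Car3 and Ucp1, and 4 of the 6 tested genes were lower without overlap, beside 13.6% of all genes. These 4 were well above background on all 3 arrays in TG alone and so passed the filter through the group where they are high, and nothing is read from this count. Without TG 1 the differences were -3.21 ± 1.08 for Adipoq, -2.25 ± 0.83 for Retn, -4.21 ± 1.53 for Cidec, -4.28 ± 1.53 for Car3 and -0.11 ± 0.21 for Cidea, and Plin1 and Ucp1 were then well above background on no array of either group. On slide 2, where TG 3 was measured beside the TG+MI arrays, its white fat index of 1.64 lay above 0.35, -1.75 and -2.03. With slide as a block the index was 2.78 lower in TG+MI, against 3.80 without the block.

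Between the 2 infarcted groups, TG+MI minus WT+MI was -0.23 ± 1.34 for Adipoq, -0.999 ± 0.986 for Retn, 0.11 ± 1.57 for Cidec, -0.69 ± 1.62 for Car3, -0.00 ± 0.11 for Lep and 0.49 ± 0.25 for Cidea. The groups overlapped for all 8 genes but Ucp1, whose 3 TG+MI values were the lowest and were not well above background, while 12.6% of all genes tested were lower without overlap. These groups share no slide, and with slide as a block the white fat index went from -0.33 to 1.19. The difference therefore has no settled direction. The infarction differences of wild-type and transgenic hearts, which share no arrays, were -0.61 and -4.78 for Adipoq, 1.02 and -3.37 for Retn, and -0.45 and -5.84 for Car3, and without TG 1 those of transgenic hearts were -3.21, -2.25 and -4.28. These 3 genes were chosen with their values known, so the values are a description with no test.

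Other genes of fat were followed in 7 lists with 120 genes, of which 118 are on the array and 104 were tested. In TG against WT, 6 of the 104 rose and 0 fell (limma, Benjamini-Hochberg adjusted p under 0.05 over 19761 genes), beside 1.36% of all genes that rose and 1.14% that fell. At an unadjusted p under 0.05, 18 rose and 5 fell. The share of all genes at the unadjusted threshold is not given here, so nothing is read from this count or from the unadjusted counts below.

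Of the 22 tested white fat genes other than the 6 described above, 2 rose in TG, 0 fell, and the median difference was 0.48 on the log2 scale, against -0.07 over all genes tested. At an unadjusted p under 0.05, 8 were higher and 0 lower. Rbp4, the plasma carrier of retinol that fat and liver secrete, was at -3.97, -3.62 and -5.21 on WT and 1.46, -0.78 and -1.45 on TG, and was 4.01 ± 0.68 higher (adjusted p = 0.0152). On 1 of the 3 WT arrays it was not well above background. Trarg1, a regulator of the glucose transporter in fat, was at -3.97, -3.93 and -4.22 on WT and -1.78, -3.00 and -2.80 on TG, and was 1.51 ± 0.33 higher (adjusted p = 0.0440). The Trarg1 call was lost in 14 of 20 alternatives, among them each set without 1 WT array, and the Rbp4 call in 2. Cfd, which encodes adipsin and is among the most abundant messages of white fat, did not pass the test. Its values were high and low on much the same arrays as those of Adipoq and Cidec: -4.48, 0.61 and -1.81 on WT, -1.39, -2.42 and 1.46 on WT+MI, 5.92, 1.80 and 2.16 on TG, and 0.41, -2.79 and -4.63 on TG+MI. Fabp4, a fatty acid carrier of fat cells and of heart endothelium, stayed between 6.57 and 7.31 on all 12 arrays.

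Of 13 tested brown fat genes, 0 passed the adjusted threshold in TG against WT, with 4 higher and 3 lower at an unadjusted p under 0.05 and a median of 0.20. Named here for their bright probes, which says nothing of their abundance, are Acot11, a thioesterase of brown fat, at 0.42 ± 0.17 (adjusted p = 0.230), and Prdm16, the regulator that sets brown fat identity, at -0.48 ± 0.16 (adjusted p = 0.145). Elovl3, a fatty acid elongase of brown fat, was well above background on 0 of 12 arrays, TG 1 included. Of 12 brown fat genes that heart muscle also makes, 0 passed (0 higher and 1 lower at an unadjusted p under 0.05), with a median of -0.25. Cox7a1 and Acaa2, both abundant in heart mitochondria, stood at -0.32 ± 0.17 and -0.25 ± 0.16 (adjusted p = 0.353 and 0.446), and quantile normalization and the authors' value table gave both the opposite sign.

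Of 18 genes of lipid droplets and lipolysis, 1 rose in TG. Angptl4, the secreted inhibitor of lipoprotein lipase, was at 1.06, 2.43 and 0.57 on WT and 4.41, 3.24 and 4.00 on TG, and was 2.53 ± 0.46 higher (adjusted p = 0.0210); the call was lost in 7 of 21 alternatives, with slide as a block and without TG 1 among them. Of 15 fatty acid synthesis genes, 0 passed, with 2 higher at an unadjusted p under 0.05 and a median of 0.18. Acacb and Me1, named in the same way, differed by 0.07 ± 0.26 and 0.18 ± 0.14. Of 13 receptors and partners of the fat hormones, 0 passed the adjusted threshold and 0 the unadjusted one. Adipor2, a receptor of adiponectin, differed by -0.02 ± 0.11 with a sign that changed with the scaling, and Slc2a4, the insulin-regulated glucose transporter, by -0.28 ± 0.28.

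Of 11 tested transcription factors of fat cell differentiation, 3 rose in TG, 0 fell (0 also at an unadjusted p under 0.05), and the median was 0.41. Cebpb, an early factor of fat cell differentiation that also acts in inflammation, was at 2.09, 1.77 and 2.15 on WT and 3.81, 4.16 and 3.83 on TG, 1.93 ± 0.25 higher (adjusted p = 0.0060). Klf4 was 1.39 ± 0.21 higher (adjusted p = 0.0096) and Cebpd 1.51 ± 0.29 (adjusted p = 0.0263). On Cebpb and Klf4, TG 1 did not stand apart: it was lowest of the 3 TG arrays at 3.81 and 4.38. The calls of Cebpb and Klf4 held in all 21 alternatives, and that of Cebpd was lost in 7.

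The excess on TG 1 reached beyond the 8 genes. TG 1 was the highest of the 12 arrays for 11 of 22 other white fat genes, 6 of 13 brown fat genes and 6 of 15 fatty acid synthesis genes, against 1745 of 19761 genes tested (8.83%). For the transcription factors it was 3 of 11 and for the brown fat genes of heart muscle 2 of 12. For the lipid droplet genes it was 1 of 18 and for the receptors 1 of 13. Scd1, a fatty acid desaturase, was at 2.75 on TG 1 and between -2.39 and -1.10 elsewhere. Pck1, which makes glycerol for triglyceride in fat, was at 3.22 on TG 1 and between -6.82 and -2.37 elsewhere. Fasn, the fatty acid synthase, was at 5.74 on TG 1 and between 2.91 and 3.72 elsewhere, and Clstn3, of which brown fat makes a short form, was at 0.24 and between -4.19 and -3.10 elsewhere. Of the 19728 genes well above background on TG 1, 46 were at least 4-fold above every other array, of which 15 are among the 8 genes or on the fat lists. The other 11 arrays had between 0 and 95 such genes, of which 1 in all was a fat gene, Otop1 on WT 1. Adipoq, Retn, Plin1, Cidec, Car3 and Ucp1 are among the 15 and were chosen with these values known. The fat lists hold 118 of the 36981 genes on the array.

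**Figure D4:**
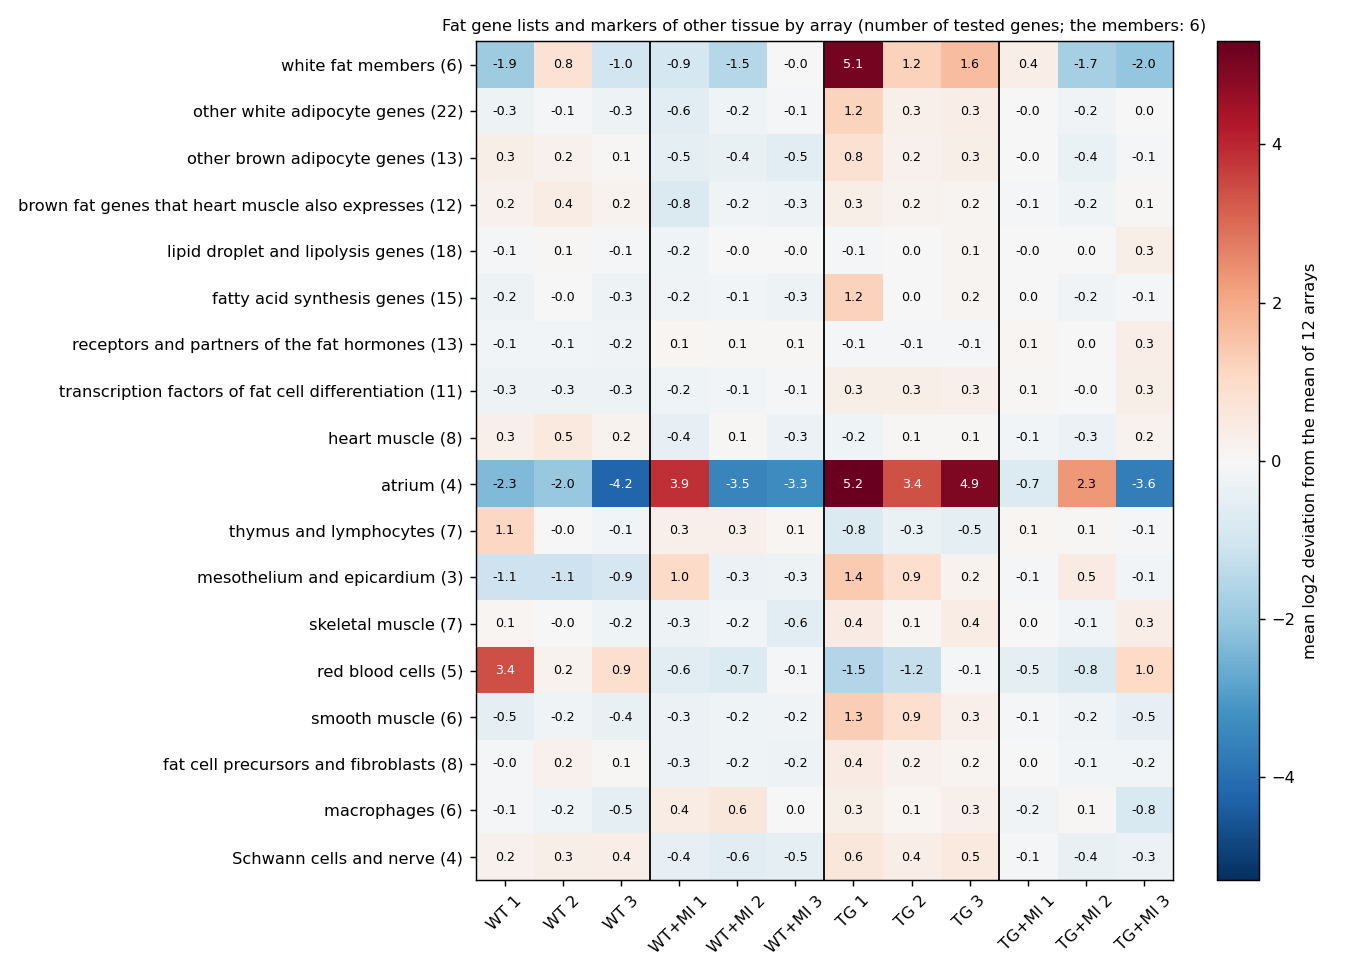
Rows are the 6 white fat genes, 7 lists of other fat genes and 10 marker lists of other cells, columns are the 12 arrays, and colour and number give the mean log2 deviation from the mean of the 12 arrays over the genes tested. TG 1 is highest in the first 3 rows and in fatty acid synthesis. It is also highest for atrium, mesothelium, skeletal muscle, smooth muscle, fat cell precursors and fibroblasts, and Schwann cells. The atrial row is high on all 3 TG arrays and on WT+MI 1.

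After infarction in wild-type hearts, 13 of the 104 fat genes rose and 41 fell, where 18.5% of all genes rose and 29.6% fell, and in each of the 7 lists more genes fell than rose. Of 22 white fat genes 2 rose and 5 fell (median -0.28, against -0.15 over all genes tested). Rbp4 rose by 3.86 ± 0.68 (adjusted p = 0.0014) and Agt, the precursor of angiotensin, by 2.04 ± 0.28, while Slc36a2 and Gpam, the first enzyme of triglyceride synthesis, fell by 1.47 and 1.28. Of 13 brown fat genes 0 rose (1 at an unadjusted p under 0.05) and 7 fell (median -0.75), among them Nrg4, a growth factor that brown fat secretes, by 1.80, Adra1a by 1.42, Pank1 by 1.40 and Acot11 by 1.15. Of the 12 brown fat genes of heart muscle 0 rose (0 also at an unadjusted p under 0.05) and 8 fell (median -0.56), led by the potassium channel Kcnk3 at -1.61 and by Ppargc1a and Esrrg, regulators of mitochondrial genes, at -1.31 and -1.30. In the heart muscle list 4 of 8 markers fell, and the part of muscle loss in these counts was not tested.

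Lipid droplet genes went both ways after infarction, 3 higher and 9 lower of 18. Angptl4 rose by 4.21 ± 0.46 (adjusted p = 0.000165), Hilpda, a hypoxia-induced lipase inhibitor, by 2.11 and Plin2, the droplet coat of non-fat cells, by 1.69, while Lpin1 fell by 1.40. Of 15 synthesis genes 2 rose and 4 fell, with Elovl6 at 1.88 and Mlxipl, the carbohydrate-responsive regulator of lipid synthesis, at -1.60. Among receptors and partners 3 rose and 4 fell of 13: Socs3, a brake on leptin signalling, rose by 4.19 ± 0.29 and Cap1, a resistin receptor, by 1.27, and Irs1 and Slc2a4 of the insulin pathway fell by 1.59 and 1.48. Of the transcription factors 3 rose and 4 fell of 11, with Cebpb at 2.25, Cebpd at 1.996, Tle3 at 1.29 and Klf15 at -1.42. Of the droplet proteins of white fat cells, Plin1 was not well above background in either group and Cidec differed by -0.28 ± 1.57, an error that leaves its direction unknown.

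In the transgenic hearts infarction was followed by 3 higher and 6 lower of the 104 fat genes (5.07% and 3.75% of all genes). Socs3 rose by 3.22 ± 0.29, Agt by 1.15 and Plin2 by 0.86. S100b, made by fat, glia and nerve sheath cells, fell by 1.87, Trarg1 by 1.27, Ebf2 by 0.93, Slc36a2 by 0.90, Zfp423 by 0.83 and Bscl2 by 0.65. Without TG 1, 1 of the 104 was called lower and without TG 2 or TG 3, 1 was called higher. TG+MI shares its slide with TG 3 only, and with slide as a block limma called 1 higher and 0 lower (4 and 6 at an unadjusted p under 0.05). Between infarcted groups 15 of the 104 were higher and 2 lower in TG+MI (5.97% and 4.5% of all genes), but without TG+MI 1, without TG+MI 3 or with slide as a block the higher count was 0. In the interaction, the infarction difference of transgenic less that of wild-type hearts, 2 of the 104 were higher and 4 lower (4.91% and 3.02% of all genes). The 4 were Rbp4 at -5.37 ± 0.96 (adjusted p = 0.0257), Angptl4 at -3.89 ± 0.65, Cebpb at -2.49 ± 0.36 and Cap1 at -1.10 ± 0.25, and the 2 were Mlxipl at 1.11 ± 0.26 and Lhx8 at 0.90 ± 0.23. At an unadjusted p under 0.05, 25 were higher and 15 lower. With slide as a block limma called 0 of the 104 in the interaction, with 7 higher and 8 lower at an unadjusted p under 0.05.

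Markers of other tissue moved beside the fat genes. The 4 atrial markers Nppa, Myl4, Myl7 and Sln had a summed signal of 327 to 1039 times the array's 75th percentile on the TG arrays and 37.8 to 38.9 on the WT arrays, with 2 of 4 called higher in TG. Their mean deviation was 5.25 on TG 1, 3.37 on TG 2, 4.94 on TG 3 and 3.88 on WT+MI 1, and on no other array above 2.29. All 7 mesothelial and epicardial markers were well above background on TG 1, but only 3 on TG 2 and 3 on TG 3. Between 2 and 5 were so on the WT, WT+MI and TG+MI arrays, and 1 of the 3 tested was called higher in TG. Of 6 smooth muscle markers 3 were called higher in TG, with mean deviations of 1.31, 0.91 and 0.28 on the TG arrays and between -0.50 and -0.06 on the other 9. Of 7 tested skeletal muscle markers, 0 were called in TG against WT (2 higher and 1 lower at an unadjusted p under 0.05), and their mean deviation on TG 1 was 0.43, while Car3 deviated by 7.05. In the remaining lists limma called 0 of 8 heart muscle markers (3 lower at an unadjusted p under 0.05), 0 of 8 of fat cell precursors and fibroblasts (2 higher and 1 lower), 0 of 6 of macrophages (1 higher), 0 of 5 of red blood cells (5 lower) and 0 of 4 of Schwann cells and nerve (1 higher). Of 7 tested lymphocyte markers 1 was lower, and of 5 lung markers 0 passed the filter on dim probes. The part of atrial, epicardial and vessel tissue in the fat signal was not tested. WT+MI 1, high for the atrial markers, had a white fat index below its group's highest. WT 2, the highest of WT in the white fat index, was also the highest of WT for the atrial markers, at -1.99 against -2.33 and -4.21. The TG arrays had the same order in both, TG 1, TG 3 and TG 2. The orders differed in the other groups. WT 3 lay above WT 1 in the white fat index and below it for the atrial markers. TG+MI 1 was the highest of TG+MI in the white fat index, at 0.35. For the atrial markers TG+MI 2 was the highest of TG+MI, at 2.29, against -0.72 on TG+MI 1 and -3.65 on TG+MI 3.

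The genes whose deviations were most like the white fat index, by the smallest root mean square difference over the 12 arrays among the genes tested, were Epyc (0.81 log2 units), Col4a6 (0.85), Tceal3 (0.96), Tceal6 (0.998), Arxes2 (1.01), Susd5 (1.03), Ptgfr (1.05), Col8a2 (1.05), Scd1 (1.06) and Ptprz1 (1.07). Epyc and Col8a2 were well above background on 3 arrays only. Most like the brown fat index were Scd1 (0.60), Clstn3 (0.63), Prkar2b (0.69), Apoc1 (0.79), Cdo1 (0.81), Arxes2 (0.85), Cyp2s1 (0.85), Cib2 (0.87), Platr26 (0.88) and Rab3b (0.90). Scd1 and Arxes2 appeared in both sets. Of the 8 genes' own lists, Scd1 stands among the fatty acid synthesis genes and Clstn3 among the brown fat genes of heart muscle, and the other genes named here are on no fat list.

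The promoter windows of Adipoq, which moved with the set, and of Lep, which did not, are shown for comparison. They hold the 250 bases before the transcript start from RefSeq on GRCm38.p6, at chr16:23146286-23146535 and chr6:29059971-29060220, both on the plus strand, with motif matches in capitals.
Adipoq: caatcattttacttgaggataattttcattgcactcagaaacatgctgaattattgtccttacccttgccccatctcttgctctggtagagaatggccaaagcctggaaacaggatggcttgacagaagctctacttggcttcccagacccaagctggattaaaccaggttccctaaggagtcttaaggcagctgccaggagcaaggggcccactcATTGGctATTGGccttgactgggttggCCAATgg
Lep: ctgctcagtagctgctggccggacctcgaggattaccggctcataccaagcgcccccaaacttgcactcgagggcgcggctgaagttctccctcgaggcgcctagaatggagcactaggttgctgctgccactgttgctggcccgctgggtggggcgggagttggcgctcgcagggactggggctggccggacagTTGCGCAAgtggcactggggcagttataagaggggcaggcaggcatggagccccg
Searched on both strands were AGGTCANAGGTCA, the paired site of PPAR and RXR receptors, AGGTCA alone, which the paired site contains, TTGCGCAA, a site of CEBP factors, CCAAT and TATAAA. In the Adipoq window CCAAT was found at positions -34 to -30, -27 to -23 and -7 to -3 from the start, and in the Lep window TTGCGCAA at -55 to -48. The Ucp1 window held AGGTCA at -14 to -9. CCAAT stood in 33.8% of all 32851 windows, AGGTCA in 14.0%, TTGCGCAA in 0.164%, TATAAA in 12.4% and the paired site in 0.0335%. Neither TATAAA nor the paired site was found in the 7 windows of 6 of these genes, 2 of them of Cidec; Car3 and Cidea were not searched here.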

How the data were processed

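Single-colour Cy3 arrays of 12 mouse heart samples were analysed from the scanner files. Per the file headers, spot intensity was background-subtracted with Agilent Feature Extraction 12.0.3.1 and deposited as linear processed signal, not normalized between arrays. The authors also deposited a log2 value table of the same arrays. Its column medians lie between 4.22 and 4.23 and its columns rank probes as the processed signal does. How it was scaled is known only from these values. Limma is named, with no version or role, in the submitters' processing notes.

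From the deposited intensity, log2 was taken and the 75th percentile of the non-control probes was subtracted per array, and spots of a probe were averaged without outlier spots, which left out 49 probes. Gene names were updated through a RefSeq table, by accession for 32994 probes, by symbol for 10224 and by synonym for 520, and 12867 kept the name in the files. The brightest probe stood for a gene. A gene entered the tests if all 3 arrays of some group had its probe well above background, which left 19761 of 36981 genes and 6 of the 8 described here, without Plin1 and Ucp1. Standard errors for those 2 come from the same model fitted to all genes. Groups were compared with limma 3.58.1 in R 4.3.3 in 1 model over all 12 arrays, with Benjamini-Hochberg adjustment and a threshold of 0.05, and the script was tested on simulated data. The interaction sets the infarction difference in transgenic hearts against the one in wild-type hearts.

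The 8 genes, the lists and the rule for named genes were chosen with earlier results of these data known. By that rule the text names, per list, up to 4 called genes of largest difference in TG against WT and in WT+MI against WT, otherwise the 2 with the brightest probes, and the 10 genes most like each fat index. Cfd, Fabp4, Elovl3, Pck1, Fasn, Otop1, the genes called in TG+MI against TG and in the interaction, and the genes named beyond these in the closing section were singled out after their values were seen. WT+MI 2 and WT+MI 3 carry another title prefix than WT+MI 1 and were placed by their characteristics. The alternatives were quantile normalization, normexp correction with an offset of 50, the value table, other filters, slide and replicate number as blocks, slide 1 alone, the mean over probes, and leaving out each array. The number of arrays limits the precision.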

Additional observations from a re-analysis of the deposited data

Results flagged for a closer look

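For 5 genes named from the fat lists, the infarction difference of transgenic hearts differed from that of wild-type hearts by limma's interaction term. On the log2 scale it was -5.37 for Rbp4, -3.89 for Angptl4, -2.49 for Cebpb, 1.11 for Mlxipl and -1.10 for Cap1, with adjusted p between 0.0149 and 0.0399, while 4.91% of all genes tested were called higher and 3.02% lower. Rbp4, Angptl4 and Cebpb were higher in WT+MI than in WT by 3.86, 4.21 and 2.25, and were already higher in TG than in WT by 4.01, 2.53 and 1.93. Rbp4 was at -1.67, -1.34 and -2.29 on the TG+MI arrays and at 1.46, -0.78 and -1.45 on the TG arrays, so that the groups overlapped. TG+MI shares slide 2 with TG 3 only, and with slide as a block none of these 5 interactions was called.

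The term was also -4.12 for Epyc, -2.83 for Col4a6, -2.11 for Tceal6, -4.53 for Col8a2 and -2.75 for Cyp2s1. These genes were chosen because they follow the white or brown fat index, which is high in TG and low in TG+MI, so the values restate that choice and are a description with no test. Epyc and Col8a2 were well above background on 3 arrays only and entered the fit through the group where they are high.

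For Retn the infarction difference in transgenic less that in wild-type hearts was -4.39, a description with no test, since Retn was chosen with its values known. All 3 WT+MI arrays lay above the WT mean of -4.651, WT+MI 2 only just at -4.642, and WT 2 lay above WT+MI 1 and WT+MI 2. All 3 TG+MI arrays lay below the TG mean of -1.26, but so did TG 2 and TG 3, since TG 1 raised that mean. For Ucp1 the same fitted value was -5.20, over 10 arrays not well above background, and it ran from -6.99 to -1.81 when 1 array was left out, nearest 0 without TG 1. TG 2 and TG 3 also lay below the Ucp1 mean of TG, which TG 1 set, so the opposite order rests on that array, and the Ucp1 difference was not tested.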

How the results depend on the processing

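The difference of TG from WT in the white fat index stayed above 0 in every alternative run, and each of the 12 arrays in turn was left out, with values between 2.13 (without TG 1) and 4.10. With normexp it was 1.72, that of TG+MI from TG -1.96 and the interaction -1.91. Leaving out 1 array gave ranges of 0.25 to 3.05 for the brown fat index in TG against WT, -3.23 to -0.44 in TG+MI against TG and -3.60 to -0.81 in the interaction, each nearest 0 without TG 1. Ucp1, a part of the brown fat index, was well above background on 2 arrays only. With slide as a block, TG+MI against WT+MI was 1.19 for the white and 2.36 for the brown fat index, and the brown index was -0.32 in TG+MI against TG and -0.69 in the interaction. In the block, slides are compared only through TG 3 and the other 2 TG arrays, and slide 1 alone held no TG+MI array, so only the first 2 comparisons were run there.

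Counts of called genes moved most. With no filter on dim probes, 3 other fat genes and 202 of all genes were called (fat genes higher) in TG against WT, 0 higher, 0 lower and 17 in TG+MI against WT+MI, 1 higher, 2 lower and 931 in TG+MI against TG, and 0 higher, 1 lower and 52 in the interaction. With slide as a block these were 3 higher and 317, 0, 0 and 0, 1, 0 and 122, and 0, 0 and 3. Normexp gave 24 fat genes higher in TG+MI against WT+MI and 4 in the interaction, the filter for all 12 arrays 5 higher in the interaction, and the mean over probes 7 higher and 1 lower in TG+MI against WT+MI. The replicate numbers did not pair the arrays, since same-numbered arrays correlated at -0.258 to 0.116; with a replicate block the counts were 321 in TG against WT, 1 fat gene lower in TG+MI against WT+MI, 1 higher in TG+MI against TG and 1042 in the interaction.

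Leaving out 1 array gave 2 to 7 fat genes higher and 137 to 868 of all genes in TG against WT (494 with all arrays; 161, 137 and 138 without WT 1, 2 or 3, 241, 302 and 317 without TG 1, 2 or 3, 868 without TG+MI 3). In TG+MI against WT+MI it gave 0 to 23 higher, 0 to 3 lower and 0 to 3432 of all genes, with 43 without WT+MI 1, 0 without TG+MI 1 and 3 without TG+MI 3. In TG+MI against TG it gave 1 to 5 higher, 1 to 10 lower and 679 to 2280, the lowest without TG+MI 2, and in the interaction 0 to 8 higher, 1 to 5 lower and 51 to 2681, the highest without TG+MI 2.

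For the 8 genes and both indices, no sign changed in TG against WT or in TG+MI against TG. In TG+MI against WT+MI 8 of these 10 items had the other sign in some alternative: with slide as a block the white fat index went from -0.33 to 1.19, Adipoq from -0.23 to 1.76 and Ucp1 from -1.59 to 3.80. In WT+MI against WT 6 of 10 did, among them Adipoq, at -1.42 to 0.32 over the sets without 1 array, and the brown fat index, at -0.10 with normexp, and in the interaction 1 did, Cidea. Among the other named genes, signs changed in TG against WT for genes that were not called, and for Acss2. Cox7a1 was 0.081 with quantile normalization and 0.082 with the value table, Acaa2 0.20 and 0.21, and Adipor2 0.038 and 0.038, 0.21 with normexp, 0.29 with the mean over probes, and -0.055 to 0.0075 over the sets without 1 array. Acacb was -0.0015 with slide as a block and on slide 1 alone, -0.0099 with the mean over probes and -0.0073 to 0.154 over the sets without 1 array. Acss2 after infarction in wild-type hearts was 0.015 with the mean over probes. Over all alternatives, results of other named genes kept call and sign 950 times and lost the call 106 times. The cause of these changes was not tested. Signal over background limits Plin1 and Ucp1, which were measured on 1 and 2 of 12 arrays.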

Other observations

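Among the genes at least 4-fold above every other array on TG 1, several outside the fat lists stood out there; where the next array was not well above background the fold is a lower bound. Tmem45b was at least 21.0-fold above each other array, Pon1, an esterase carried on lipoproteins, at least 8.70-fold, Pax5, a B cell regulator, 8.46-fold, Acsm3 at least 8.08-fold, Cdo1, a cysteine-degrading enzyme of fat and liver, 7.11-fold, Cyp2e1 6.61-fold, Aldh1a7 at least 5.84-fold, Prkar2b 5.13-fold and Apoc1 5.09-fold. On the fat lists the largest were Pck1 at 48.4-fold, Scd1 at 14.3-fold, Cfd at 13.6-fold, Clstn3 at 10.2-fold, Acvr1c at 6.84-fold or more, Adig at 6.12-fold and Slc27a2 at 4.97-fold. Cebpa, a late factor of fat cell differentiation, was at -0.38 on TG 1 and between -3.09 and -2.13 on the other arrays, while Pparg, its partner factor, was at 2.41 on TG 1 and equally on TG+MI 3.

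WT 1 had 95 genes at least 4-fold above every other array, more than any other array, and its red blood cell markers deviated by 3.43. Among them was Otop1, a proton channel gene on the brown fat list, at 1.01 on WT 1 and between -4.10 and -2.30 elsewhere. Its Ucp1 signal was 3.01 before scaling and not well above background.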
